A study of Bos taurus with 2 samples.

Results

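Genes of mitochondrial complex I were examined in bovine IVF embryos after knockdown of CDKN1C, an imprinted inhibitor of the cell cycle. Members were taken by name: each gene whose symbol begins with NDUF, the stem used for subunits of NADH:ubiquinone oxidoreductase and for its assembly factors. The members described are 37 of 21209 gene symbols, at 38 loci. Of these, 6 encode core subunits, 25 accessory subunits and 4 the assembly factors NDUFAF1 to NDUFAF4, while NDUFA4 and NDUFA4L2 carry the family name but were kept apart. Per the labels, 1 pool of embryos received siRNA against CDKN1C and 1 pool was Sham-injected. The study's methods describe sham embryos as punctured with the injection needle without delivery of siRNA, so both groups share the puncture and differ in siRNA as such as well as in its target. Embryos given siRNA against GFP and embryos without injection were not analysed here. The labels give neither dose, day, stage nor the number of embryos in a sequenced pool. With a single library in each group there is no replicate, no error and no test, and every difference described here is a difference between those libraries.

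Complex I is the entry point of electrons into the respiratory chain. It takes electrons from NADH through a flavin and a chain of iron-sulfur clusters in its matrix arm, hands them to ubiquinone, and pumps protons through its membrane arm. The core subunits, shared with bacteria, do this chemistry, some of them encoded in the nucleus and the rest in mitochondrial DNA. Accessory subunits surround and stabilise the core, and assembly factors help to build the complex without staying in it. The embryo inherits its mitochondria from the oocyte, and oxidative phosphorylation is known to rise around blastocyst formation.

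Levels are FPKM, which are scaled per length of transcript and, per the study's methods, were upper-quartile normalized. Their totals differed, at 1.05e+06 in the siRNA-injected pool and 1.38e+06 in the sham pool. The RNA was amplified before sequencing, and how far this altered levels compared between genes was not tested. Differences are log2 of the ratio of siRNA-injected to sham FPKM after adding 1 FPKM to each, so that a negative value means a lower level in the siRNA-injected pool, and the difference of a gene with low levels is understated. Over the 7984 genes that averaged 1 FPKM or more, the differences had a median of -0.17. When both pools were scaled to the same total FPKM, this median became 0.16, a shift of 0.33 that applies to members and other genes alike. Values relative to the all-gene median are given for the main groups. CDKN1C itself stood at 14.6 FPKM after siRNA injection and at 49.5 FPKM in sham embryos, 3.40-fold lower. All 8 trophectoderm markers and all 5 inner cell mass markers examined reached a mean of 1 FPKM. The trophectoderm list summed to 7570 FPKM in the siRNA-injected pool against 17555 in the sham pool. A single gene made up most of that sum, at 5389 against 11245 FPKM, and 3 of the 8 were higher after siRNA injection as deposited and 4 at the same total. The median level of the list was 87.6 FPKM after siRNA injection and 32.6 FPKM in sham embryos. The inner cell mass list summed to 119 against 234 FPKM, and 4 of its 5 genes were lower. The hypoblast list, of which 2 of 4 genes reached 1 FPKM and SOX17 was listed at 0 in both pools, summed to 15.2 against 17.5 FPKM. The lists for cells outside the embryo were low: 7.09 against 8.997 FPKM for cumulus and granulosa cells, with 2 of 7 genes at 1 FPKM or more and PTX3 listed at 0 in both pools, and 5.29 against 2.93 FPKM for fibroblasts, with 2 of 5 and COL1A1 listed at 0. Oocyte genes summed to 9.995 against 24.6 FPKM, with 1 of 5 reaching 1 FPKM. Their part in the differences described below was not tested, and in pooled embryos fewer cells of a type and less RNA per cell cannot be told apart.

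Complex I transcripts were abundant in both pools. Of the 37 members, 35 averaged 1 FPKM or more, 29 averaged 100 FPKM or more, and 24 were among the 400 highest genes. NDUFA4L2 was listed at 0 in both pools and NDUFAF1 lay under 1 FPKM, and these were the members left out of counts and medians. Added up, the 37 genes came to 28237 FPKM after siRNA injection and 36855 FPKM in sham embryos, 76.6% of the sham sum. As a share of all FPKM they made up 2.69% and 2.66%, so the lower sum went with a lower total for all genes. The order of the 35 levels was nearly the same in both pools, with a Spearman coefficient of 0.97 across genes. The membrane-embedded core subunits of complex I, which are encoded in mitochondrial DNA, were looked for under 14 spellings of their ND symbols, none of which was found, and they were not analysed here. The same holds for 5 of the 30 accessory subunits listed, NDUFA1, NDUFA10, NDUFAB1, NDUFB11 and NDUFS6.

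**Figure D1:**
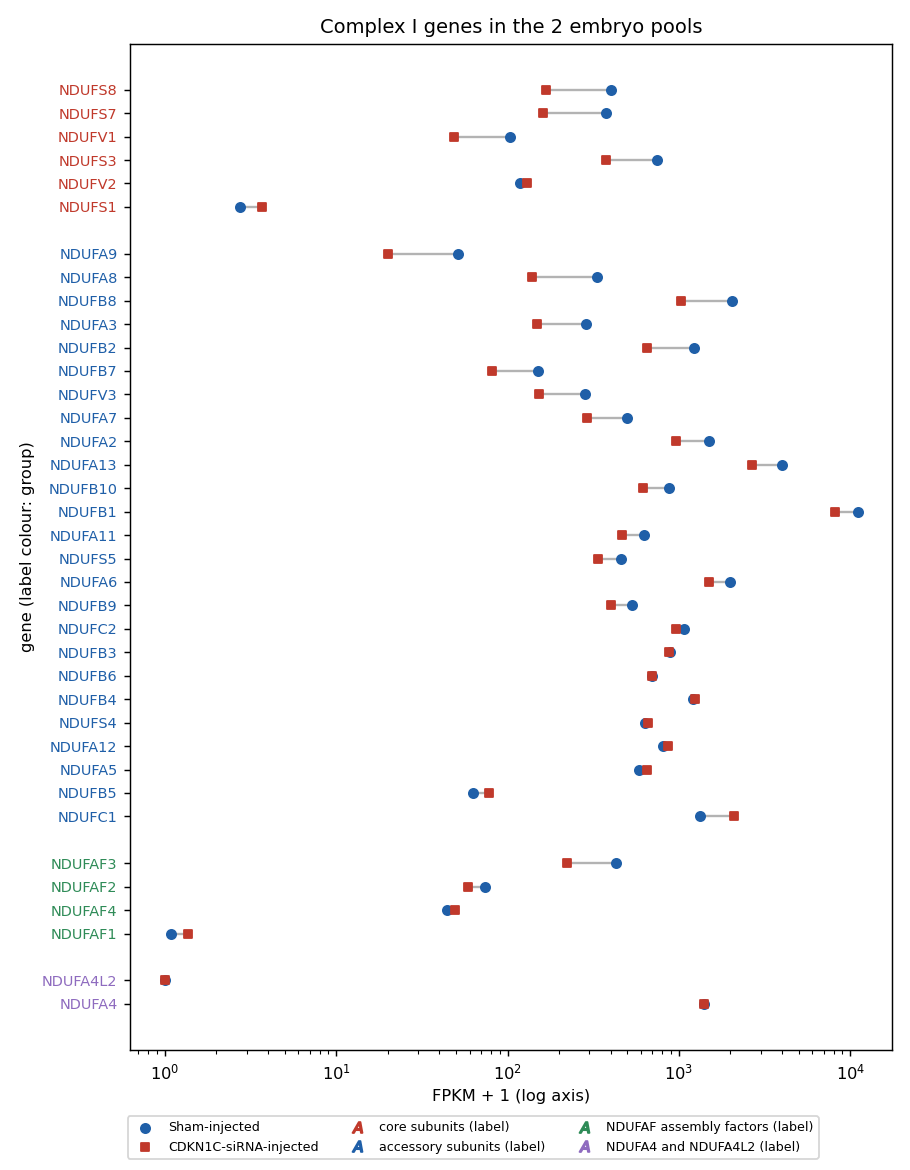
FPKM + 1 on a log axis for the 37 complex I genes in the siRNA-injected pool (red squares) and the sham pool (blue circles), 1 library each, with label colours for the gene groups. Among the core subunits, NDUFS8, NDUFS7, NDUFV1 and NDUFS3 lie lower after siRNA injection, while NDUFV2 and NDUFS1 lie higher, and most accessory subunits show a smaller gap.

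Among the complex I groups, the nuclear-encoded core subunits had the lowest median difference. Of the 6 core genes described, 4 were lower in the siRNA-injected pool, against 58.3% of all 7984 genes. Of the same 6, 3 were at least 2-fold lower, against 15.7%. The median difference of the 6 was -1.04, or -0.87 relative to the all-gene median and -0.65 with both pools at the same total. At the same total, 4 of 6 were again lower, against 41.9% of all genes, and 0 at least 2-fold, against 7.83%. Of the 6, 4 averaged 100 FPKM or more, and shares at the same total were not computed for genes of that level. Together these core genes came to 881 FPKM after siRNA injection and 1739 FPKM in sham embryos, 50.7% of the sham sum.

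NDUFS3 belongs to the module of the matrix arm that joins it to the membrane near the ubiquinone site. At chr15:77718629-77723373 of bosTau7, it stood at 375 FPKM after siRNA injection and at 744 FPKM in sham embryos, 1.98-fold lower and just inside the limit of 2-fold. It had the highest level of the core genes described in both libraries.

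NDUFS7 and NDUFS8 carry the last iron-sulfur clusters of the chain before ubiquinone. NDUFS7, on chromosome 7, stood at 161 FPKM after siRNA injection and at 375 FPKM in sham embryos, 2.33-fold lower. NDUFS8, on chromosome 29, stood at 167 against 398 FPKM, 2.38-fold lower. These neighbours in the electron path had almost equal levels in both libraries, with a ratio of NDUFS7 to NDUFS8 of 0.962 in the siRNA-injected pool and 0.9402 in the sham pool. NDUFS8 shares its locus with ALDH3B1, an aldehyde dehydrogenase gene of 0.480 and 0.722 FPKM.

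The outer end of the matrix arm, where NADH is oxidised, gave mixed values. NDUFV1, which binds NADH and the flavin, stood at 47.7 FPKM in siRNA-injected embryos and at 103 FPKM in sham embryos, 2.15-fold lower. NDUFV2, its iron-sulfur partner, stood at 128 against 117 FPKM, a log2 difference of 0.13. The ratio of NDUFV1 to NDUFV2, which does not depend on how the libraries are scaled, was 0.372 after siRNA injection and 0.876 in sham embryos. The value for NDUFV2 is the sum of a pair of loci on chromosome 24, at 59.0 against 53.6 FPKM (chr24:42612652-42631553) and 69.2 against 63.6 FPKM (chr24:42525114-42543863). Both loci had similar differences, 0.13 and 0.12, although reads that fit either copy may have been divided between them. NDUFS1, the largest core subunit of this module and the holder of most of its iron-sulfur clusters, was listed at only 2.69 FPKM after siRNA injection and at 1.73 FPKM in sham embryos. The other 5 core genes described ranged from 47.7 to 375 FPKM and from 103 to 744 FPKM, respectively, so NDUFS1 stood far under its partners in both libraries. An unnamed gene at the same coordinates, LOC100850426, was listed at 18.7 and 14.8 FPKM, and how reads were divided between the pair is not given in the sources used here.

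Accessory subunits differed less. Of 25, 19 were lower in the siRNA-injected pool, against 58.3% of all genes, and 16 at the same total, against 41.9%. Of the 25, 23 averaged 100 FPKM or more. Of all genes at that level 75.1% were lower as deposited, and their shares at the same total were not computed. At least 2-fold lower were 2, against 15.7% of all genes, and 0 at the same total, against 7.83%. Their median was -0.44, or -0.28 relative to the all-gene median and -0.05 at the same total. Their sum was 25626 FPKM after siRNA injection and 33175 FPKM in sham embryos, 77.2% of the sham sum. The median of the core genes differed from that of the accessory genes by -0.59 on the log2 scale, a gap that the choice of scaling can hardly change. Core genes therefore took a smaller share of the FPKM of the subunits described after siRNA injection, 3.33% against 4.98%. Without replicates, this gap could not be tested.

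The 6 accessory genes with the lowest differences came from both arms. NDUFA9, which sits beside the ubiquinone site, stood at 18.9 FPKM after siRNA injection and at 50.1 FPKM in sham embryos. This 2.64-fold difference, -1.36 on the log2 scale, was the lowest of the members described. NDUFA8, a cysteine-rich subunit on the intermembrane-space face, stood at 138 against 332 FPKM, 2.41-fold lower. No other accessory gene passed 2-fold. NDUFB8, a membrane-arm subunit often used as a blotting marker of assembled complex I, stood at 1031 against 2036 FPKM, 1.97-fold lower. NDUFA3, a small subunit of the membrane arm, stood at 148 against 286 FPKM, 1.94-fold lower. NDUFB2 and NDUFB7 also lie in the membrane arm, NDUFB7 on its intermembrane-space face. NDUFB2 stood at 653 against 1226 FPKM and NDUFB7 at 79.7 against 150 FPKM, and both were 1.88-fold lower. At the same total these 6 genes were still lower, with log2 differences from -0.98 for NDUFA9 to -0.51 for NDUFB7.

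At the other end, 6 accessory genes were higher after siRNA injection as deposited, most of them by little. NDUFC1, a small membrane-arm subunit, stood at 2082 FPKM after siRNA injection and at 1327 FPKM in sham embryos, a 1.57-fold difference and the highest among the members counted. Its partner in the same module, NDUFC2, stood at 962 against 1073 FPKM, slightly lower as deposited and slightly higher at the same total. The ratio of NDUFC2 to NDUFC1 was 0.462 after siRNA injection and 0.808 in sham embryos. NDUFB5, of the membrane arm, stood at 77.3 against 61.7 FPKM, 1.25-fold higher. NDUFA5, NDUFA12 and NDUFS4 are matrix-arm subunits, and NDUFS4 is among the genes best known from inherited complex I deficiency. NDUFA5 stood at 654 against 582 FPKM, a log2 difference of 0.17 that turned negative once local gene density was taken out. NDUFA12 stood at 863 against 807 FPKM, a log2 difference of 0.10. NDUFS4 stood at 656 against 631 FPKM, a difference of 0.06 that turned negative after correction for locus length or gene density. NDUFB4, of the distal membrane arm, stood at 1234 against 1206 FPKM, a difference of 0.03. The last 3 values are close to no difference, and no error is at hand to place them.

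The complex I genes with the highest FPKM encoded small accessory subunits, read with the limit that the RNA was amplified. NDUFB1, at 8108 FPKM in siRNA-injected and 11065 FPKM in sham embryos, ranked 25 among all genes by mean level. This single gene held 30.6% and 31.7% of the FPKM of the subunits described. Its difference of -0.45 became -0.05 at the same total and turned positive after correction for locus length or mean level. NDUFA13, also known as GRIM-19, stood at 2652 against 3985 FPKM, a difference of -0.59 at rank 82. NDUFA6, a subunit of the LYR protein family, stood at 1487 against 1994 FPKM, a difference of -0.42 that became -0.03 at the same total and turned positive after correction for mean level or gene density. It shares its locus with C5H22orf32, listed at 278 against 471 FPKM. NDUFC1, at rank 136, was the exception among these 4 in being higher after siRNA injection. The log2 differences of the remaining accessory genes ran from -0.89 for NDUFV3, at 151 against 280 FPKM, to -0.01 for NDUFB6, at 696 against 699 FPKM.

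By place in the complex, the 8 accessory genes of the matrix arm had a median of -0.54 and the 17 of the membrane arm a median of -0.44, or -0.37 and -0.28 relative to the all-gene median and -0.14 and -0.05 at the same total. The matrix-arm median was 0.09 lower, a small gap beside the range of the accessory genes, from -1.36 to 0.65. With the 6 core genes added, all of which belong to the matrix arm, the 14 matrix-arm subunits had a median of -0.71, and 4 of them were at least 2-fold lower, against 1 of 17 in the membrane arm and 15.7% of all genes. At the same total both counts were 0. NDUFA4, now assigned to complex IV, stood at 1401 FPKM after siRNA injection and at 1397 FPKM in sham embryos, a difference of 0.00 as deposited and of 0.40 at the same total, and negative once gene density was taken out. Its relative NDUFA4L2 was listed at 0 in both libraries, at coordinates shared with SHMT2.

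Assembly factors of the NDUFAF series gave no common direction. NDUFAF3 and NDUFAF4 act as a pair early in assembly of the ubiquinone module. NDUFAF3 stood at 221 FPKM after siRNA injection and at 428 FPKM in sham embryos, 1.94-fold lower, while NDUFAF4 stood at 48.6 against 43.5 FPKM, a difference of 0.15 that turned negative once gene density was taken out. Their ratio was 4.55 after siRNA injection and 9.84 in sham embryos. NDUFAF2, a relative of NDUFA12 that holds its place during late assembly, stood at 58.0 against 72.7 FPKM, a difference of -0.32 that became 0.07 at the same total. NDUFAF1, part of the complex that builds the membrane arm, was listed at 0.358 against 0.0790 FPKM, too low to compare. The median of the 3 factors above 1 FPKM was -0.32, or -0.16 relative to all genes and 0.07 at the same total, so that its sign depended on the scaling.

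Assembly factors under other names were also examined, and 12 of 26 listed were found, each averaging 1 FPKM or more. Older symbols were read through the RefSeq gene table of ARS-UCD2.0. Of the 12, 9 were lower in the siRNA-injected pool, against 58.3% of all genes, and 6 at the same total, against 41.9%. ECSIT, ACAD9, TMEM126B and NDUFAF1 work together on the membrane arm. ECSIT stood at 8.97 FPKM after siRNA injection and at 27.0 FPKM in sham embryos, 3.01-fold lower. ACAD9 stood at 2.13 against 7.47 FPKM, 3.50-fold lower, and both remained at least 2-fold lower at the same total. TMEM126B stood at 24.3 against 25.6 FPKM, a difference of -0.07 that turned positive at the same total, so the size of the difference was not shared within this set. FOXRED1, a flavoprotein needed for complex I assembly, stood at 1.31 against 4.08 FPKM, 3.12-fold lower. ECSIT, ACAD9 and FOXRED1 passed 2-fold on the log2 scale with 1 FPKM added, 25% of the 12, against 15.7% of all genes. At the same total 2 of the 12 passed, against 7.83% of all genes. ATP5SL, at 0.869 against 2.53 FPKM, had a plain ratio of 2.91 but a log2 difference of -0.92. NUBPL, which delivers iron-sulfur clusters, stood at 2.49 against 3.86 FPKM. NDUFAF5, listed as C13H20orf7 and known to hydroxylate NDUFS7, stood at 4.64 against 6.82 FPKM. NDUFAF7, listed as C11H2orf56 and a methyltransferase, was higher, at 4.44 against 3.43 FPKM, as were TIMMDC1 at 2.81 against 2.41 and NDUFAF6, listed as C14H8orf38, at 1.28 against 1.15 FPKM. The remaining factors, LYRM2 and TMEM186, were lower as deposited, with differences of -0.19 and -0.15, and both turned positive at the same total. All 12 were expressed at low levels, from 0.869 to 24.3 FPKM after siRNA injection and 1.15 to 27.0 FPKM in sham embryos. At such levels few reads may lie behind a value, and the number of reads is not known from these files.

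Counted over all members, 25 of 35 were lower in the siRNA-injected pool and 10 higher. Among all genes 58.3% were lower, and 75.1% among the 772 genes averaging 100 FPKM or more, the range in which 29 of the members fell. At the same total the members lower numbered 21, against 41.9% of all genes. Shares at the same total were not computed for the 772 abundant genes, so this count cannot be read as an excess. At least 2-fold lower were 5 members, namely NDUFA9, NDUFA8, NDUFS8, NDUFS7 and NDUFV1, or 14.3% of the 35. This share was near that of all genes, 15.7%. Among the 29 members averaging 100 FPKM or more it was 3, or 10.3%, against 21.0% of the 772 abundant genes. Another 4, NDUFS3, NDUFB8, NDUFAF3 and NDUFA3, lay just inside 2-fold. At least 2-fold higher was 0 of 35, against 4.92% of all genes and 1.42% of the 772 abundant genes. At the same total, 0 of 35 were at least 2-fold lower, against 7.83% of all genes, and NDUFC1 alone at least 2-fold higher, against 12.7%. The median of all members was -0.44, or -0.28 relative to the all-gene median and -0.05 at the same total. For the 29 abundant members the median was -0.45, against -0.43 for all 772 genes in that range. Within the family, the core genes had the lowest median.

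**Figure D2:**
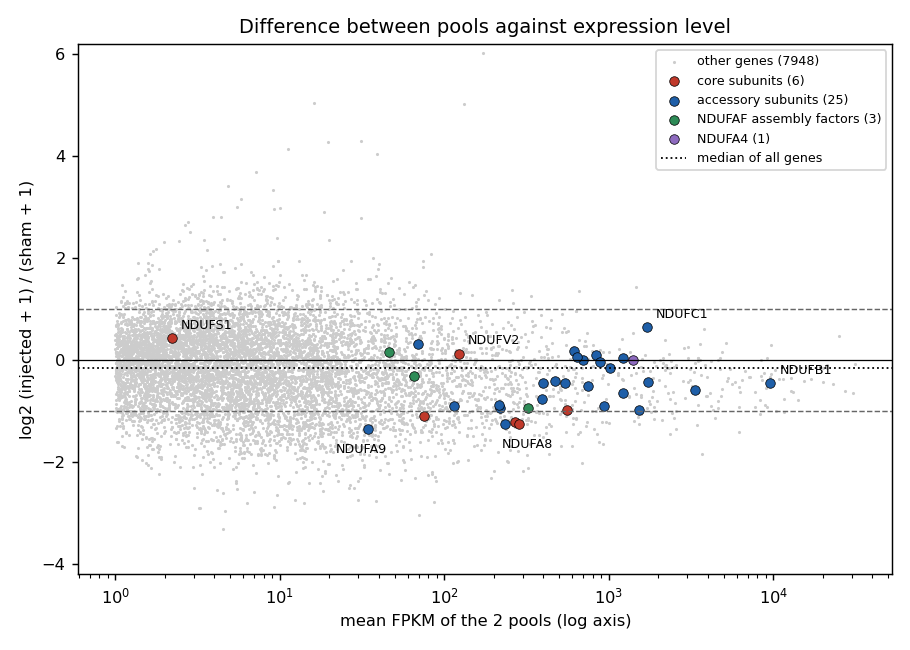
Log2 difference between the pools against mean FPKM on a log axis for 35 complex I genes (coloured by group) and 7948 other genes (grey), with the all-gene median of -0.17 dotted and 2-fold limits dashed. Most members lie to the right, where other genes also lie under 0, and the core genes other than NDUFV2 and NDUFS1 lie near or under the lower limit.

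Other parts of the respiratory chain were described in the same way. The 37 genes of complexes II to V had a median of -0.40, or -0.23 relative to all genes and 0.00 at the same total, and 5 of them, 13.5%, were at least 2-fold lower, against 15.7% of all genes, with 4 at the same total, against 7.83%. Medians were -0.31 for 2 genes of complex II, -0.35 for 9 of complex III, -0.28 for 10 of complex IV and -0.49 for 16 of complex V, near the -0.44 of the complex I accessory genes. As a share of all FPKM, complexes II to V made up 7.13% after siRNA injection and 7.15% in sham embryos, as even as the share of complex I. For 71 mitochondrial ribosomal protein genes the median was -0.47, or -0.30 relative to all genes and -0.07 at the same total. Of these, 17, or 23.9%, were at least 2-fold lower, and 7 at the same total, read against the same shares of all genes. The median of the complex I core genes, -1.04, was under that of each of these groups, but it rests on 6 genes in single libraries. It also sets core subunits alone against whole complexes, which were not split into core and other subunits. Single genes ran from -2.19 for UQCRC1 to 0.60 in complex III and from -1.97 for ATP5B to 0.65 in complex V. Both of these low values lay under the lowest complex I member. The differences between groups were not tested.

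**Figure D3:**
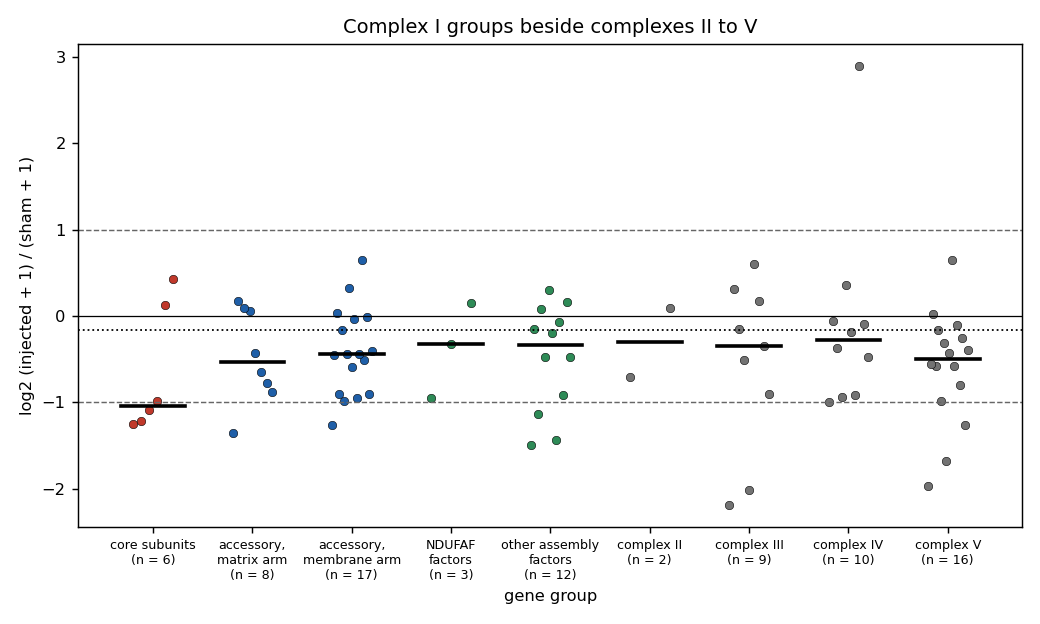
Log2 difference between the pools for each gene (points) in the complex I groups and in complexes II to V, with group medians as bars, the all-gene median dotted and 2-fold limits dashed. The core subunits have the lowest median, -1.04, and the spread of single genes overlaps between all groups.

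Members were also described by their position in the genome. The rule used no position, and local gene density was taken up after the data were seen. Counted within 1 Mb on either side of a gene, the 5 members at least 2-fold lower had 19 to 63 loci around them, with a median of 55. For the other 26 subunits the median was 23, and for the 8 subunits that were higher it was 14.5, with a range of 10 to 23. The median of all 7984 genes was 27. Of the 14 subunits with more than 27 loci around them, 14 were lower in the siRNA-injected pool as deposited, and 4 at least 2-fold. Among all genes in such surroundings 75.0% were lower and 25.1% at least 2-fold. Of the 17 subunits in sparser surroundings, 9 were lower and 1, NDUFA9, at least 2-fold, against 41.8% and 6.51% of all genes there. At the same total, 14 of the 14 and 6 of the 17 were lower, and 0 subunits were at least 2-fold lower. The shares of all genes in these surroundings were not computed at the same total. Core genes were found on both sides: NDUFS3, NDUFS7, NDUFS8 and NDUFV1 in dense surroundings and NDUFV2 and NDUFS1, both higher as deposited, in sparse ones.

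Across the 31 subunits, the Spearman coefficient between difference and number of loci was -0.65, and across all 7984 genes it was -0.42. The genes share both libraries, so these coefficients are descriptions only. Genes within 500 kb of the 5 members at least 2-fold lower had a median difference of -0.80, taken as the median over members of their neighbours' medians, against 0.02 around the other subunits. All 6 members on chromosome 7, NDUFS7, NDUFB7, NDUFA7, NDUFA2, NDUFA13 and NDUFA11, were lower, from -1.21 to -0.44. NDUFV1 and NDUFS8 lie 162 kb apart on chromosome 29, so each counted among the neighbours of the other. With the trend on gene density removed by a loess fit, the core median was -0.48 and the accessory median -0.19, and 1 member was still at least 2-fold lower. The coefficient of difference with mean level was 0.21 among subunits and -0.17 across all genes. With locus length it was 0.25 over the 26 subunits with a locus of their own and 0.31 over all 6859 such genes. With the trend on locus length removed instead, the core median was -0.52 and the accessory median -0.04. The part of gene density, base composition and RNA amplification in the differences was not tested.

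**Figure D4:**
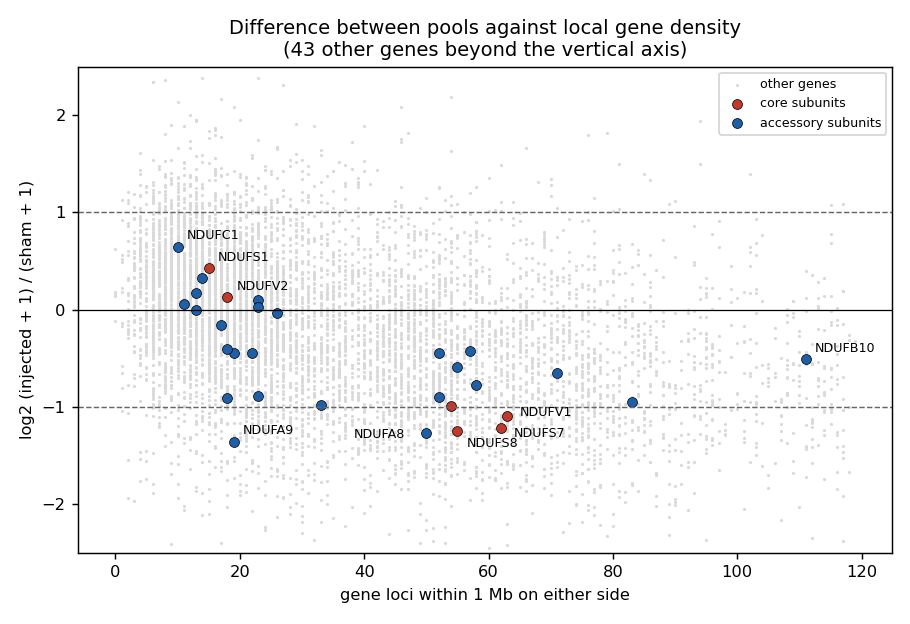
Log2 difference between the pools against the number of gene loci within 1 Mb on either side, for core (red) and accessory (blue) subunits and for other genes (grey, 43 of them beyond the vertical axis). All 14 subunits with more than 27 loci around them lie under 0, and the 8 subunits above 0 have 10 to 23 loci around them.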

How the data were processed

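The authors amplified RNA from 1 CDKN1C-siRNA-injected and 1 Sham-injected embryo pool (MessageAmp II), sequenced it, mapped reads to bosTau7 with TopHat and deposited FPKM from Cufflinks 2.0.2 (tools per the submitters' processing notes), upper-quartile normalized and corrected for sequence bias per their methods. The gene annotation is not given in the sources used here. Of 22220 loci, 615 without a symbol were left out, and loci sharing a symbol were summed, giving 21209 symbols. Differences were log2((injected + 1)/(sham + 1)) over the 7984 genes averaging 1 FPKM or more, and 2-fold on this scale was counted. Fold values in the text are plain FPKM ratios. With 1 library per group there was no test, and the depth is unknown. A further gene that the rule finds is not reported here and was left out of the members' counts, sums and medians. Members and gene lists were chosen with earlier results of these data known. Named by rule were all core, NDUFAF and other assembly genes described, NDUFA4 and NDUFA4L2, members under 1 FPKM or at several loci, and accessory genes with the 6 lowest and 6 highest differences and 4 highest levels. Other accessory genes, the genes sharing a locus with a member, and chromosome and density groups were named after values were seen. Alternatives were pseudocounts of 0.1 and 5, no filter or a mean of 5 FPKM, the all-gene median set to 0, the same total FPKM, the highest locus in place of the sum, folds of 1.5 and 4, and a loess fit (span 0.3) on locus length. Fits on mean level and gene density, and counting other assembly factors with the NDUFAF genes, were added after the data were seen. The computation was tested on sham values with known folds planted without noise, which checks the arithmetic and not the results. Computations ran in Python 3.11.15, with statsmodels 0.14.6 for loess, matplotlib 3.10.9 for figures, and NumPy 2.4.6 and pandas 2.3.3 for tables.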

Additional observations from a re-analysis of the deposited data

How the results depend on the processing

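No paired analysis was possible because each group has 1 library. No alternative changed the sign of a value past 2-fold, and 21 of 35 members kept their sign in all 8 alternatives computed per gene. A change of pseudocount cannot change a sign, and the highest locus in place of the sum alters NDUFV2 alone. Of the 35, 0 were at least 2-fold lower in all 8. At the same total FPKM, 0 members were at least 2-fold lower and 1 higher, and the core, accessory and NDUFAF medians were -0.65, -0.048 and 0.070. With the all-gene median set to 0 they were -0.87, -0.28 and -0.16. After a loess fit on locus length they were -0.52, -0.040 and -0.41, with 3 members lower and 1 higher. After a fit on mean level they were -0.61, 0.011 and 0.068, with 1 member lower and 1 higher, and after a fit on gene density -0.48, -0.19 and -0.24, with 1 lower. A pseudocount of 0.1 gave -1.05, -0.45 and -0.33, and one of 5 gave -1.005 for the core and -0.30 for NDUFAF genes. A mean of at least 5 FPKM, which drops NDUFS1, gave -1.09 for the core, and no filter, which adds NDUFAF1, gave -0.083 for NDUFAF genes. Counted at 1.5-fold, 15 members were lower and 1 higher, and at 4-fold 0 were lower. For these folds and for the loess fits the share of all genes was not computed, so the counts cannot be called particular to complex I. With the other assembly factors counted as members, 8 of 47 were at least 2-fold lower, against 15.7% of all genes. Apart from the effect of dropping or adding a gene and of the size counted, the cause was not tested. Core genes had a lower median than accessory genes in each of these settings that gave both. Setting the all-gene median to 0 or the same total shifts both groups nearly alike, so these settings could hardly change that order. The loess fits could, and the core and accessory medians lay closest after the fit on gene density, at -0.48 and -0.19. The limits are single pools, an unknown number of reads, amplified RNA, shared or duplicated loci, and totals that differ between the pools, so that only ratios between genes of one library are free of the choice of scale.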

Other observations

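Genes that control the making of mitochondria were read from the same libraries. Of 12 found, 10 had a mean of at least 1 FPKM, with a median difference of -0.10 as deposited, 0.06 relative to the all-gene median and 0.18 at the same total. POLRMT, the RNA polymerase of mitochondria, stood at 4.67 FPKM after siRNA injection and at 17.4 FPKM in sham embryos, 3.72-fold lower. It was the single gene of the 10 past 2-fold, or 10%, against 15.7% of all genes at least 2-fold lower. At the same total it was again 1 of 10, against 7.83%. TFAM, which packages mitochondrial DNA and takes part in its transcription with POLRMT, stood at 3.45 against 2.37 FPKM. TFB2M, the transcription factor that opens the promoter with them, stood at 8.51 against 5.99 FPKM. These 3 partners differed in direction, as deposited and at the same total. POLG, the catalytic subunit of the mitochondrial DNA polymerase, stood at 10.9 against 13.96 FPKM, and its accessory subunit POLG2 at 3.65 against 4.12 FPKM. The nuclear regulators of respiratory genes GABPA, at 4.10 against 3.52 FPKM, and ESRRA, at 7.52 against 11.4 FPKM, lay on either side of no difference as deposited. GABPA shares its coordinates with ATP5J, listed at 2192 against 2447 FPKM, and how reads were divided between them is not given. PPARGC1A, a coactivator of mitochondrial biogenesis, was listed under 0.1 FPKM in both libraries.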
